A study of Homo sapiens with 9 samples.

Results

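The G1 cyclins and their kinases set the pace of the cell cycle between mitosis and DNA replication. D-type cyclins bind CDK4 and CDK6, E-type cyclins bind CDK2, and the active pairs phosphorylate the retinoblastoma protein, which releases E2F factors to switch on genes of S phase. Cyclins G1 and G2 carry a cyclin box but are not known as drivers of the cycle, and cyclin G2 is associated with arrested cells. In the adult liver hepatocytes rest outside the cycle, and cyclin D1 is induced when they re-enter it after partial hepatectomy. The group described here holds 10 genes, CCND1, CCND2, CCND3, CCNE1, CCNE2, CCNG1, CCNG2, CDK2, CDK4 and CDK6. They were chosen by name, and every probe set that the platform annotation pairs with only 1 gene symbol, that of a member, was taken. This gave 29 probe sets of 54613 tested and 10 genes of 19775, and 0 probe sets with several symbols held a member.

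RNA came from Huh7, an established human hepatocellular carcinoma line, given PBS for 48 hours, PGG at 0.1 mg/mL for 6 hours or PGG at 0.1 mg/mL for 48 hours, with 3 arrays per group called biological replicates in the labels. PGG is penta-O-galloyl-glucopyranoside, a plant gallotannin, and PBS is its solvent. The study ran the arrays to find how PGG raises the level of GNMT, a liver methyltransferase. Its readouts of MYC activity included cyclin D1 and cyclin D3. It measured their RNA and that of CDK6 by qRT-PCR, at a time of PGG between those of the arrays. No PBS array at 6 hours was analysed, so PGG at 6 hours and PBS also differ in time in culture. PGG at 6 hours and PGG at 48 hours differ in it too. The label descriptions of the PBS arrays give 0 hours of PGG. Each value is a log2 RMA signal of a whole culture, in which a change in the share of cells in G1 and a change in RNA per cell cannot be told apart. All 8 measured markers of hepatocytes and hepatoma, among them ALB and AFP, lay above the array median on all 9 arrays. Of 9 measured markers of leukocytes, fibroblasts and endothelium 4 did. By group means these were CD3E (5.38 to 5.68), COL1A1 (7.24 to 7.52), PDGFRB (5.42 to 5.92) and PECAM1 (6.02 to 6.55). The mean of these 9 was 5.04 to 5.13 on the arrays, and PTPRC (3.30 to 3.38) and CDH5 (3.26 to 3.30) lay below the lower quartile of every array (3.80 to 3.84). The 3′ to 5′ difference of the ACTB control, a sign of RNA quality, was 2.14, 4.03 and 2.67 in PGG 48 h replicates 1, 2 and 3 and at most 1.57 on each other array. The same difference of the GAPDH control was 1.83 in PGG 48 h replicate 2 and at most 0.39 on each other array. The part of RNA quality in the results at 48 hours was not tested, and values without replicate 2 are given where they bear on a result. Groups were compared with limma over all 54613 probe sets, and rose and fell are used at an adjusted p under 0.05.

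At 6 hours of PGG the E-type cyclin genes, CCNG2, CCND3 and CDK2 were higher than in PBS and CDK4 was lower. At 48 hours CCNG2, CCNE2 and CCNG1 were higher, while CCND1, CDK6, CDK4 and CDK2 were lower. Each gene was represented by its brightest probe set, that with the highest average signal. By this measure 5 of 10 members rose and 1 fell at 6 hours, and 3 rose and 4 fell at 48 hours. Of all genes so represented 31.0% passed at 6 hours and 46.1% at 48 hours, so that many genes on these arrays moved. The PBS arrays are shared by both comparisons. The median log2 difference of the members was 0.21 at 6 hours and -0.13 at 48 hours, against 0.01 and -0.02 for all genes.

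**Figure D1:**
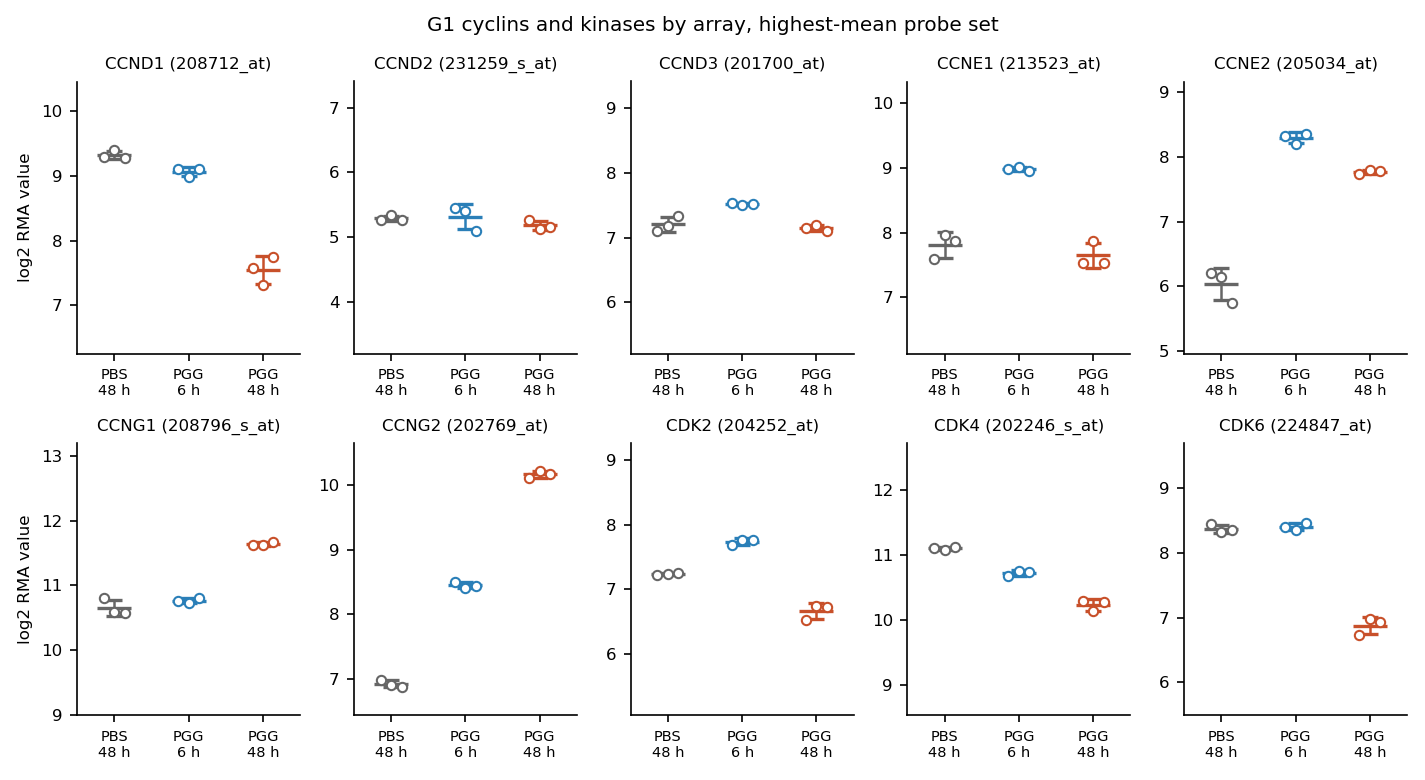
Log2 RMA value of each of the 10 genes on each array, read by its brightest probe set (named above each panel). Circles are single arrays, horizontal lines are means of 3 arrays, bars with caps are ± SD, and every panel spans the same number of log2 units at its own level. CCNG2 stands apart in all 3 groups, CCNE1 is raised at 6 hours alone, and CCND1 and CDK6 drop at 48 hours.

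Cyclin D1, the D-type cyclin that growth signals induce most directly, fell late. CCND1 read 9.29, 9.39 and 9.28 on the PBS arrays, 9.10, 8.98 and 9.10 at 6 hours and 7.57, 7.32 and 7.75 at 48 hours by probe set 208712_at. The 3 groups did not overlap, with PBS highest and PGG at 48 hours lowest. The log2 difference from PBS was -1.77 at 48 hours (95% interval -1.99 to -1.55, adjusted p = 1.0e-07 from limma), a level 3.42-fold lower, and -1.66 without PGG 48 h replicate 2. At 6 hours it was -0.26 (95% interval -0.48 to -0.04, adjusted p = 0.090 from limma) by this probe set. Its adjusted p from limma was 0.023 without PGG 48 h replicate 2 and 0.045 without replicate 3, arrays that are not in this comparison. With any other array left out it was 0.11 to 0.25. The other CCND1 probe set, 208711_s_at, gave -0.53 at 6 hours (adjusted p = 7.9e-03 from limma) and -1.62 at 48 hours (adjusted p = 9.7e-07 from limma). Both probe sets thus fell at 48 hours, and they differed in whether the early difference passed.

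Cyclin D3, the D-type cyclin prominent in differentiated tissues, moved little. By probe set 201700_at CCND3 read 7.10, 7.18 and 7.33 in PBS, 7.53, 7.50 and 7.52 at 6 hours and 7.14, 7.20 and 7.10 at 48 hours. The arrays at 6 hours lay above all others, and those at 48 hours lay within the PBS range. CCND3 rose by 0.31 at 6 hours (adjusted p = 7.4e-03 from limma), 1.24-fold, a call lost by the methods' t-test (adjusted p = 0.051), and its difference at 48 hours was -0.06 (95% interval -0.21 to 0.10). Its other probe set, 1562028_at, did not pass in any comparison, with differences of -0.01 and -0.02.

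Cyclin D2 gave no call. Its 4 probe sets, 231259_s_at, 200953_s_at, 200951_s_at and 200952_s_at, had differences between -0.08 and 0.03 at 6 hours and between -0.10 and 0.12 at 48 hours. The brightest, 231259_s_at, read 5.26, 5.34 and 5.26 in PBS, 5.45, 5.41 and 5.09 at 6 hours and 5.26, 5.13 and 5.16 at 48 hours, so that the groups overlapped. Its 95% interval at 48 hours was -0.31 to 0.10. The group means of 200951_s_at, 3.31 to 3.39, and of 200952_s_at, 2.78 to 2.90, lay below the lower quartile of every array. Signals this dim show little of any change, and the table holds no detection calls.

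The D-type partners CDK4 and CDK6 both fell at 48 hours. CDK4, measured by 202246_s_at alone, read 11.11, 11.08 and 11.13 in PBS, 10.67, 10.75 and 10.74 at 6 hours and 10.29, 10.13 and 10.28 at 48 hours. Each group lay below the one before it without overlap. The early fall of CDK4 was -0.39 (adjusted p = 1.2e-03 from limma) and the late one -0.87 (adjusted p = 9.8e-07 from limma), the latter 1.83-fold. Without PGG 48 h replicate 2 the late difference was -0.82. Between the times CDK4 fell by 0.49 (adjusted p = 1.2e-04 from limma).

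CDK6 was read by 7 probe sets, which differed at 6 hours. By the brightest, 224847_at, it read 8.44, 8.32 and 8.35 in PBS, 8.40, 8.35 and 8.46 at 6 hours and 6.73, 6.97 and 6.93 at 48 hours. The PBS and 6 hour arrays overlapped and all 3 arrays at 48 hours lay below them. The difference was 0.03 at 6 hours (95% interval -0.14 to 0.20) and -1.49 at 48 hours (adjusted p = 5.5e-08 from limma), and -1.54 without PGG 48 h replicate 2. Probe sets 224848_at and 224851_at followed the same course, with -0.03 and -0.19 at 6 hours, neither past the test, and -1.60 and -1.83 at 48 hours.

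Another 3 CDK6 probe sets were already lower at 6 hours. Probe set 243000_at read 7.43, 7.39 and 7.18 in PBS, 6.75, 6.75 and 6.79 at 6 hours and 5.28, 5.11 and 5.30 at 48 hours, with no overlap between any groups. It fell by 0.57 at 6 hours (95% interval -0.75 to -0.39, adjusted p = 3.8e-04 from limma), an interval that does not meet that of 224847_at. Probe set 207143_at fell by 0.62 (adjusted p = 0.022 from limma) and 235287_at fell by 0.95 (adjusted p = 2.9e-04 from limma) at 6 hours, and their late differences were -1.22 and -2.35. The values of 235287_at at 48 hours, 3.31, 2.91 and 3.31, lay below the lower quartile of the arrays. The remaining probe set, 231198_at, passed at neither time, with -0.13 and -0.19. Thus 6 of 7 probe sets had CDK6 lower at 48 hours, and 3 of 7 at 6 hours. Which transcripts or exons each of them reads was not analysed here.

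**Figure D2:**
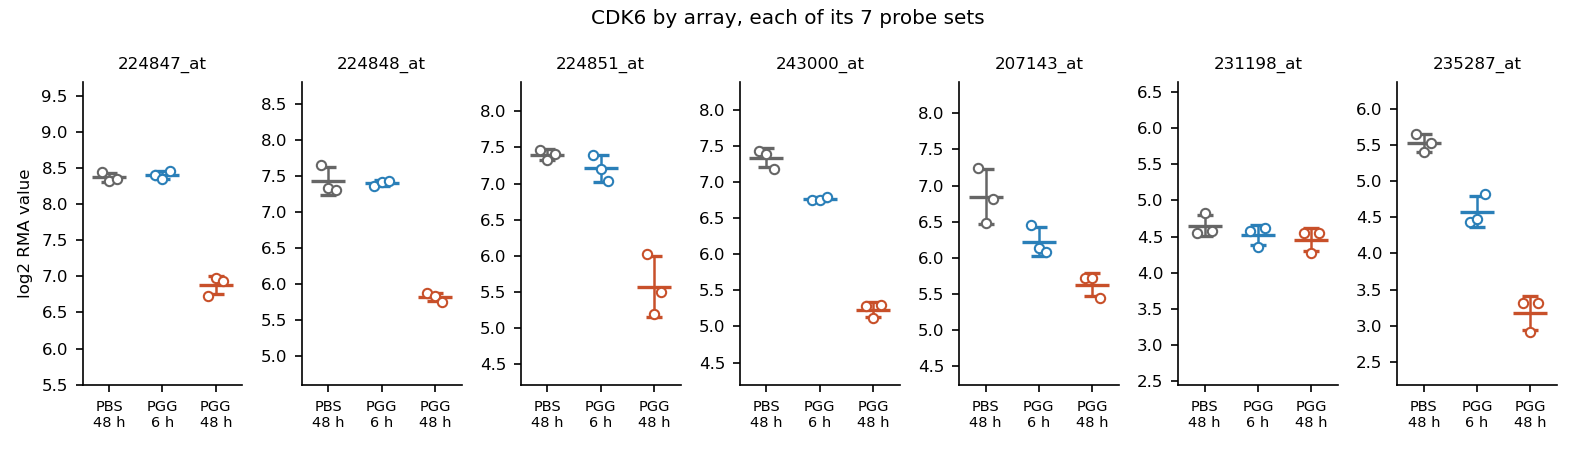
Log2 RMA value of CDK6 on each of the 9 arrays for each of its 7 probe sets, ordered by mean. Circles are single arrays, horizontal lines are means of 3 arrays and bars with caps are ± SD. At 6 hours 243000_at, 207143_at and 235287_at lie below PBS, whereas 224847_at, 224848_at and 224851_at overlap it, and 231198_at overlaps in all 3 groups.

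The E-type cyclins, which bind CDK2 late in G1, rose early. By probe set 213523_at CCNE1 read 7.59, 7.97 and 7.87 in PBS, 8.98, 9.01 and 8.96 at 6 hours and 7.54, 7.87 and 7.54 at 48 hours. The arrays at 6 hours lay above all the others, while those at 48 hours overlapped PBS. CCNE1 rose by 1.17 at 6 hours (adjusted p = 2.2e-05 from limma), 2.26-fold, and fell by 1.33 between 6 and 48 hours (adjusted p = 2.7e-06 from limma). Its difference from PBS at 48 hours was -0.16 (95% interval -0.41 to 0.09), and -0.27 without PGG 48 h replicate 2 or without PBS replicate 1, again not past the test. The other CCNE1 probe set, 242105_at, was dim, with group means of 3.58 to 3.73, and did not pass in any comparison.

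CCNE2 stayed higher at 48 hours. By 205034_at it read 6.21, 6.14 and 5.75 in PBS, 8.32, 8.20 and 8.36 at 6 hours and 7.74, 7.80 and 7.78 at 48 hours. All PGG arrays lay above all PBS arrays, and those at 6 hours lay above those at 48 hours. CCNE2 rose by 2.26 at 6 hours, 4.79-fold, and by 1.74 at 48 hours, 3.34-fold (adjusted p = 2.0e-07 and 2.2e-07 from limma). Without PGG 48 h replicate 2 the late difference was 1.73. Between the times CCNE2 fell by 0.52 (adjusted p = 2.7e-03 from limma). Probe set 211814_s_at gave 2.20 and 1.35 with the same calls.

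CDK2, the kinase of the E-type cyclins, rose early and fell late. It read 7.23, 7.24 and 7.26 in PBS, 7.68, 7.77 and 7.77 at 6 hours and 6.53, 6.74 and 6.73 at 48 hours by 204252_at. The 3 groups did not overlap, with the 6 hour arrays highest and the 48 hour arrays lowest. CDK2 rose by 0.50 at 6 hours (adjusted p = 3.9e-04 from limma) and was at -0.58 from PBS at 48 hours (adjusted p = 5.5e-05 from limma). Without PGG 48 h replicate 2 the late difference was -0.61. The step between the times was -1.07 (95% interval -1.23 to -0.91, adjusted p = 4.6e-07 from limma). Probe set 211804_s_at had 0.27 at 6 hours (adjusted p = 0.24 from limma) and fell by 0.78 at 48 hours (adjusted p = 1.4e-03 from limma). The dim probe set 211803_at, with group means of 3.56 to 3.70, did not pass in any comparison.

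CCNG2 had the largest differences of the 10 genes at 48 hours, and the letters of its promoter are shown with those of CDK4. These are the members whose promoters, among those read from RefSeq for this group, hold the E-box CACGTG, the site bound by MYC with MAX. CCNG2 rose whereas CDK4 fell. Of the 10 genes 6 had promoters that were read, 10 in all, and none was read for CCND1, CCND2, CCNE2 and CDK2. The search for members left out a chromosome, so a gene without a promoter here may still have an entry. The 250 bases before the start are given 5′ to 3′ on the gene's strand from RefSeq on GRCh38.p14, at chr4:77156957-77157206 (plus strand) for CCNG2 and chr12:57752311-57752560 (minus strand) for CDK4. Capitals mark CACGTG, which reads the same on both strands.
CCNG2: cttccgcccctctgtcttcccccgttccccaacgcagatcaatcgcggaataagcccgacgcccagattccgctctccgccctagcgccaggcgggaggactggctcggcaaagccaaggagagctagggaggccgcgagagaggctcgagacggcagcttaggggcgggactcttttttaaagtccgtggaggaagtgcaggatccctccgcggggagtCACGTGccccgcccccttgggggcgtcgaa
CDK4: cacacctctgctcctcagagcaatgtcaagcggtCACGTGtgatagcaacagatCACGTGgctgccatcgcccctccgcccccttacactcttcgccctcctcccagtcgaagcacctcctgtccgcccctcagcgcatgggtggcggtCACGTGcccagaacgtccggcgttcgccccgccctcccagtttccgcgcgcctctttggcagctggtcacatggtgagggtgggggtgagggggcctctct

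The letters CACGTG stood 1 time in the CCNG2 window, starting 30 bases before the start of the gene, and 3 times in the CDK4 window, 216, 196 and 101 bases before it. Of 35116 RefSeq promoters of this length 6.34% held them at least once. The letters TTTNNCGC, searched on both strands as a form of the E2F site, stood in 2 of the 10 promoters and in 5.92% of all promoters. Both were overlapping windows of CCNG1 that held the same match. A match of letters is a description and not a measured binding site, and the arrays did not measure binding.

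By 202769_at CCNG2 read 6.99, 6.91 and 6.88 in PBS, 8.50, 8.41 and 8.44 at 6 hours and 10.11, 10.22 and 10.16 at 48 hours. The groups did not overlap and rose from PBS to 6 hours to 48 hours. The log2 difference from PBS was 1.52 at 6 hours (standard error 0.06, adjusted p = 8.8e-08 from limma), 2.87-fold, and 3.24 at 48 hours (standard error 0.06, adjusted p = 2.7e-10 from limma), 9.43-fold, and 3.21 without PGG 48 h replicate 2. Between the times CCNG2 rose by 1.71 (adjusted p = 8.6e-09 from limma). Probe sets 202770_s_at, 211559_s_at and 228081_at rose at both times as well, by 1.66, 1.68 and 1.00 at 6 hours and by 3.33, 3.33 and 2.12 at 48 hours. Probe set 1555056_at did not pass in any comparison, with -0.04 and -0.14, and read 4.74 to 5.04 on the 9 arrays.

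CCNG1, which encodes cyclin G1 and is a target of p53, rose late. Its 1 probe set, 208796_s_at, read 10.80, 10.59 and 10.57 in PBS, 10.76, 10.73 and 10.80 at 6 hours and 11.62, 11.62 and 11.67 at 48 hours. The PBS and 6 hour arrays overlapped, and the 48 hour arrays lay above all of them. The difference was 0.11 at 6 hours (95% interval -0.05 to 0.27) and 0.98 at 48 hours (adjusted p = 8.6e-07 from limma), 1.98-fold. Without PGG 48 h replicate 2 the late difference was 0.99.

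Counted by probe set, 9 of 29 rose and 5 fell at 6 hours, where 24.6% of all probe sets passed, 12.2% upward and 12.5% downward. At 48 hours 7 of 29 rose and 11 fell, where 39.0% of all passed, 18.8% upward and 20.2% downward. The groups did not overlap in 16 of 29 at 6 hours and in 19 of 29 at 48 hours, against 37.5% and 44.5% of all probe sets. The study used stricter cut-offs, an adjusted p below 0.005 with a log2 change larger than 1.5. At 6 hours 5 member probe sets met them upward and 0 downward, against 0.734% of all, 0.298% upward and 0.436% downward. At 48 hours 5 met them upward and 6 downward, against 4.12% of all, 2.26% upward and 1.86% downward. The 5 at 6 hours belonged to CCNE2 and CCNG2. At 48 hours the 5 higher ones were 4 of CCNG2 and 1 of CCNE2, and the 6 lower ones were 2 of CCND1 and 4 of CDK6. Probe sets of a gene share its RNA and are not independent. CCND1, CCND3, CCNE1, CCNG2, CDK2 and CDK6 each had probe sets that passed in a comparison beside others that did not, while CCNE2 did not differ in calls and CCND2 had none.

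**Figure D3:**
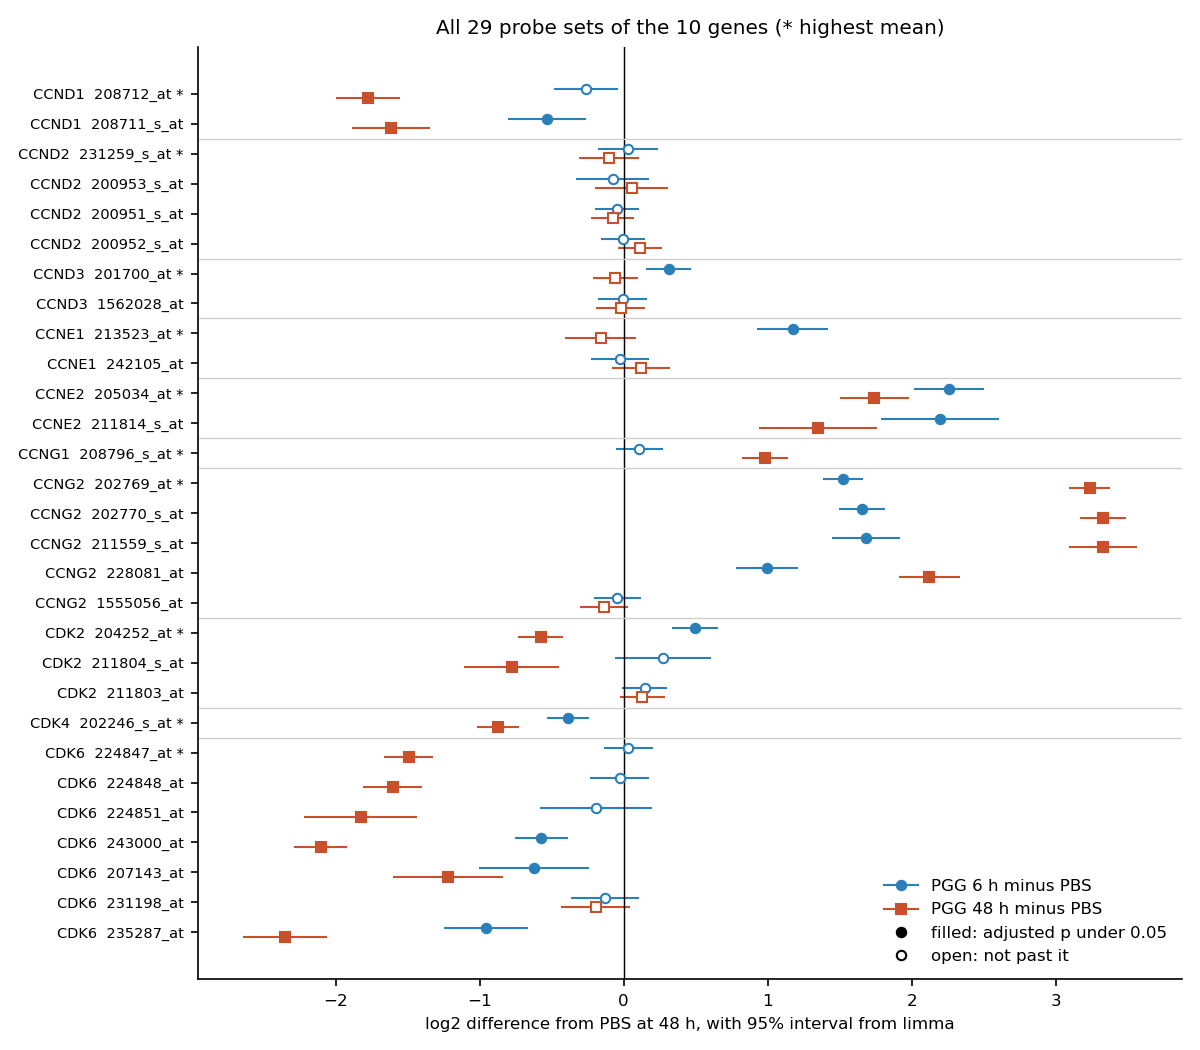
Log2 difference from PBS of all 29 probe sets of the 10 genes at 6 hours (circles) and at 48 hours (squares), with 95% intervals from limma, 3 arrays per group. Filled symbols passed an adjusted p of 0.05 over 54613 probe sets and asterisks mark the highest-mean probe set of a gene. No gene has probe sets that passed in opposite directions at the same time, and the probe sets of CDK6 spread from -0.95 to 0.03 at 6 hours.

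From 6 to 48 hours of PGG 2 members rose and 7 fell, where 44.4% of all genes passed, 22.4% upward and 22.0% downward. The 2 were CCNG1 and CCNG2. Those that fell were CCND1, CCND3, CCNE1, CCNE2, CDK2, CDK4 and CDK6, by 0.37 (CCND3) to 1.53 (CDK6). Of the probe sets 5 rose and 15 fell, where 36.4% of all passed, 18.0% upward and 18.4% downward, and 20 of 29 had groups that did not overlap, against 44.8% of all. The stricter cut-offs were met by 3 upward, all of CCNG2, and 5 downward, 4 of CDK6 and 1 of CCND1, against 3.03% of all, 1.75% upward and 1.28% downward. CCND2 alone did not pass, at -0.13 (95% interval -0.34 to 0.07). The median log2 difference of the members in this step was -0.50, against -0.01 for all genes.

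Paralogs of a pair were set against each other by the change of each from PBS. The log2 change of CCNE2 exceeded that of CCNE1 by 1.09 at 6 hours and by 1.90 at 48 hours. CCNG2 exceeded CCNG1 by 1.41 and by 2.25, and CCND3 exceeded CCND1 by 0.57 and by 1.72. For CDK6 against CDK4 the excess was 0.42 at 6 hours and -0.62 at 48 hours, so that CDK4 had the lower change early and CDK6 the lower change late by their highest-mean probe sets. In all 8 comparisons the difference between the paralogs, taken on each array, did not overlap between treated and PBS arrays. This gives p = 0.10 in a two-sided exact permutation test of 3 arrays against 3 (adjusted over the 8, 0.10). It is the smallest p such a test can give. The order of CDK4 and CDK6 at 6 hours depends on the CDK6 probe set, since 243000_at, 207143_at and 235287_at lay further below PBS than CDK4.

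The genes nearest to the 3 members with the largest differences at 48 hours were found by the root mean square distance over the 9 arrays, after the PBS mean of each gene was subtracted. Nearest to CCNG2 were HILPDA, a lipid droplet protein, at 0.13, TNS1, a focal adhesion protein, at 0.14, and KDM3A, a histone demethylase, at 0.16. HILPDA had log2 differences from PBS of 1.40 and 3.11. Nearest to CCND1 were IFRD2 and CAD, the latter a multifunctional enzyme of pyrimidine synthesis, at 0.10 each, and CARNMT1, a carnosine methyltransferase, at 0.11. CAD had differences of -0.29 and -1.73. For CCNE2 the nearest were CSRP2, KRT19, a keratin, and TNFAIP8 at distances of 0.26, 0.29 and 0.30. CSRP2 had differences of 1.86 and 1.81.

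The inhibitors that hold these kinases in check and the RB family did not move as 1 group. Genes are counted as up or down here and below by the same test. Of 10 listed 9 were measured, and 1 rose and 5 fell early, against 15.5% of all genes each way. The gene not measured was CDKN2C, an inhibitor that no single-symbol probe set names. The paper lists CDKN2C as higher than PBS at both times of PGG, so the counts leave out a reported rise. Late, 4 rose and 2 fell, against 22.9% and 23.2% of all genes. The 4 were inhibitors, CDKN1A (1.36), CDKN1B (0.76), CDKN1C (3.49) and CDKN2D (0.81). The 2 that fell, RB1 (-0.46) and RBL1 (-1.39), belong to the RB family. CDKN2B (0.01) and RBL2 (0.16) did not pass late. CDKN2A, which encodes p16 and ARF, rose by 0.69 at 6 hours and was at -0.08 at 48 hours, not past the test. CDKN1C, which encodes p57, fell early by 0.80 but late rose by 3.49, and the pocket protein gene RBL1 fell by 0.95 and fell by 1.39. Their medians were -0.31 and 0.16.

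E2F and DP factors, which the RB family holds, split 5 up and 3 down of 10 early and 1 up and 6 down late. Their medians were 0.21 and -0.49. Over all genes 15.5% passed each way early, and 22.9% upward and 23.2% downward late. The atypical repressor gene E2F7 rose by 1.80 at 6 hours and was at 0.18 at 48 hours, not past the test. E2F1 rose by 0.31 and by 0.46, and E2F5 fell by 1.23 and fell by 1.68. Cyclins of S phase and mitosis with CDK1 split 3 up and 0 down of 6 early and 0 up and 4 down late, with medians of 0.23 and -0.68. CCNB1, a mitotic cyclin, rose by 0.61 and then fell by 1.45 from PBS.

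Among 5 enzymes that act on G1 kinases, the early count was 1 up and 2 down and the late count 1 up and 4 down. Their medians were -0.11 and -0.45. For these and the following counts, the shares over all genes were 15.5% each way early, and 22.9% upward and 23.2% downward late. The activating phosphatase gene CDC25A rose by 0.65 at 6 hours and was at -0.78 at 48 hours, past the test. Within the CDK-activating kinase, CCNH was lower at both times, by -1.68 and -1.47, whereas its partner CDK7 rose by 1.07 at 48 hours. Among 10 genes for the turnover of G1 cyclins and inhibitors, the early count was 3 up and 2 down and the late count 4 up and 4 down, with medians of 0.15 and 0.11. SKP2, which targets p27 for degradation, rose by 0.99 at 6 hours and was at -0.75 at 48 hours, past the test both times. FBXO31 rose by 0.75 at 48 hours and FBXO4 fell by 0.86 and fell by 1.69. Other cyclins and kinases, 22 listed and 21 measured, gave 2 up and 3 down early and 10 up and 5 down late, with medians of -0.11 and 0.26. CDK5 rose by 0.48 at 6 hours, CCNL1, a cyclin linked to splicing, rose by 1.16 at 48 hours and CCNJ fell by 0.71 and fell by 1.49.

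**Figure D4:**
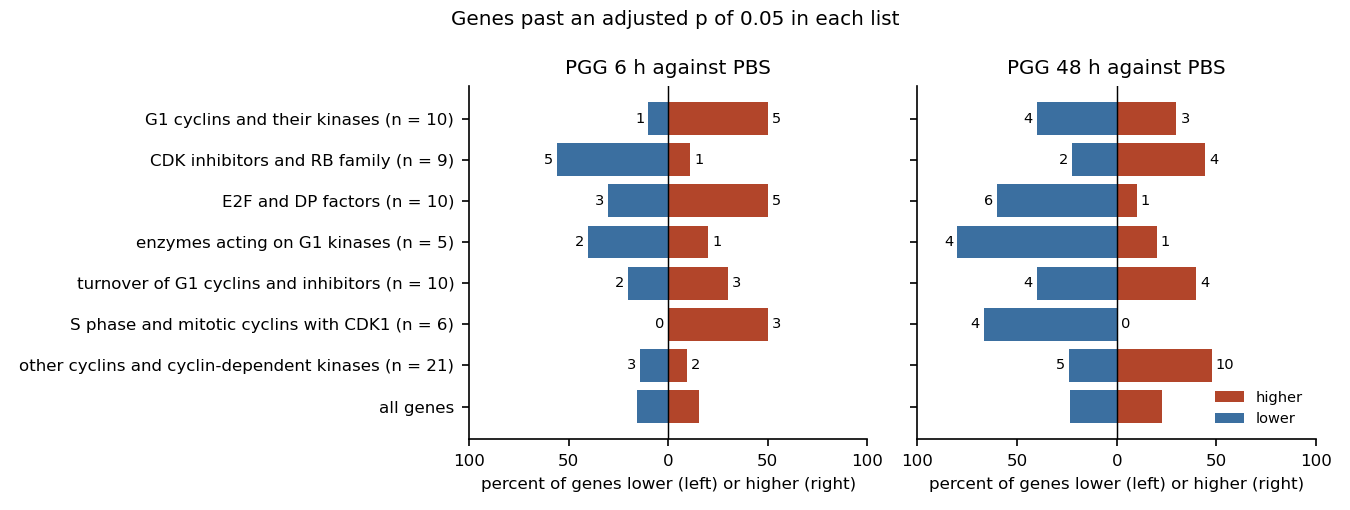
Percent of the measured genes of each list, by highest-mean probe set, that passed limma at an adjusted p below 0.05 upward (right) or downward (left) from PBS, at 6 hours and at 48 hours of PGG. Numbers beside the bars are genes, n is the number measured, and the lowest bar gives all 19775 genes. At 6 hours the G1 cyclins and kinases have 5 higher and 1 lower, and at 48 hours 3 and 4.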

How the data were processed

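RNA of Huh7 cells was hybridised to 9 Affymetrix arrays, 3 per group, and groups and replicate numbers were taken from the sample titles. Expression Console of Affymetrix (version not given in the sources used here) was the tool with which the authors ran RMA, and the deposited table holds log2 values of 54675 probe sets. Array medians were 5.16 to 5.20, and no further scaling was applied. Correlations between arrays of a group were 0.993 to 0.998. RMA fits probes across arrays, and it compresses differences of dim probe sets.

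After removal of 62 control probe sets, group differences came from limma 3.58.1 under R 4.3.3 (lmFit with 1 mean per group, eBayes, 9 arrays) and Benjamini-Hochberg adjustment over 54613 probe sets. Symbols came from the platform annotation, which paired 41091 probe sets with 1 gene, 1801 with several and 11721 with none, and all 10 members had the Entrez identifier of the RefSeq table. Where nothing else is stated, the brightest probe set by mean signal stands for a gene. No filter on low values was used. The number of arrays limits the precision.

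The members and lists were chosen with earlier results of these data known. Named genes outside the group are the largest rise and fall of the genes measured per list and the 3 nearest profiles of 3 members. CDKN2C, not measured, and the other measured genes of the list of CDK inhibitors and RB family are named beside them. List genes that no single-symbol probe set names were left out of the measured number. The fit was tested on simulated arrays of PGG at 48 hours and PBS (54613 probe sets, 50 altered per size). It found 25 of 50 altered by 0.5 on the log2 scale, 47 of 50 altered by 1 and 50 of 50 altered by 2. It also called 9 of 54413 unaltered. In the data 39.0% of all probe sets passed at 48 hours, far more than were altered in the simulation. Benjamini-Hochberg adjustment is stricter where fewer probe sets change, so these rates do not carry over to the data. Scanner files, protein, promoter and animal experiments were not analysed here.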

Additional observations from a re-analysis of the deposited data

Results flagged for a closer look

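PGG at 48 hours differed from PGG at 6 hours for 9 of the 10 genes by limma, a test that 44.4% of all genes passed. The PBS arrays drop out of this step, which thus has no PBS control for time in culture. Length of PGG exposure and time in culture cannot be told apart in it. These are the same 2 rises and 7 falls that are counted above. The step was -1.51 for CCND1, -0.37 for CCND3, -1.33 for CCNE1, -0.52 for CCNE2, -1.07 for CDK2, -0.49 for CDK4 and -1.53 for CDK6. It was 0.87 for CCNG1 and 1.71 for CCNG2, all on the log2 scale. CDK2 alone passed the test against PBS in opposite directions at the 2 times. No test for a deviating array was made, since each group holds 3.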

How the results depend on the processing

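Each comparison was recomputed with each array left out, with the replicate number as a block, after quantile normalization or centring of arrays on their median, with probe sets of a mean of at least 5 (20 of the 29 kept), with only the 2 groups compared, with array weights, with a trended robust prior, by the methods' t-test and with the mean of all probe sets of a gene. Of 210 recomputed counts 204 stayed within 1.5 times the value given. The others concern the members lower at 6 hours, which was 1. It was 2 with array weights, with only the 2 groups compared and by the methods' t-test, and 3 with the mean of all probe sets, and it ranged from 1 to 2 when an array was left out. It was 2 without PGG 48 h replicate 2 and without PGG 48 h replicate 3, which enter through the shared spread. CCND1 was added in each case, at -0.27 with array weights and -0.40 with the mean of its probe sets, where CDK6 was added too.

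With the mean of all probe sets CDK6 turned to -0.35 at 6 hours and passed (adjusted p = 2.8e-03 from limma). Signs that turned without passing belonged to CCND2 at 6 hours (-0.023 with the mean of all probe sets and from -0.037 to 0.143 when an array was left out, below 0 without PGG 6 h replicate 1 or 2), CCND2 between the times (0.022 with the mean of all probe sets) and CCND3 at 48 hours (from -0.108 without PBS replicate 1 to 0.0067 without PBS replicate 3). CCND3 at 6 hours missed the threshold by the methods' t-test (adjusted p = 0.051). Without PGG 6 h replicate 3 CCND2 fell by 0.25 between the times, and with array weights CCNE1 fell by 0.27 at 48 hours. At the study's cut-offs after Benjamini-Hochberg the methods' t-test gave 3 member probe sets at 6 hours and 10 at 48 hours, where limma gave 5 and 11.

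The replicate block left the member probe sets at 9 higher and 5 lower at 6 hours and 7 and 11 at 48 hours. Deviations of same-numbered arrays correlated at -0.09 to 0.16, and those of other pairs at -0.18 to 0.11. Arrays correlated best with their own number in 8 of 18 cases. These ranges overlap and cannot settle whether same-numbered arrays share more than a number, which was not tested. Dim probe sets limit what can be seen for CCND2.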
